A study of Xenopus laevis with 37 samples.

Results

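The genes described are the collagens, laminins, integrins, nidogens and fibronectin of Xenopus laevis in foregut, hindgut and dorsal explants at stage NF20. They were chosen by name, and 133 of the 40271 rows of the expression table matched. Of these, 83 reached 1 TPM (a transcript's share of all transcripts in a library, scaled by length to a common sum) in at least 2 of the 37 libraries and are the members described, while 50 did not. In the member set 78 genes encode matrix or integrin subunits. The other 5 matched by spelling alone, namely col4a3bp.L and col4a3bp.S, which encode a ceramide transfer protein, and itgb1bp1.S, itgb1bp2.L and itgb3bp.L, which encode proteins first found as binding partners of integrin tails. X. laevis carries a pair of subgenomes, so many genes have a long (.L) and a short (.S) chromosome copy, called homeologs, and these were tested apart. By role they are 15 fibrillar collagens, 4 collagen IV chains, 2 multiplexins (col18a1), 18 other collagens, 5 laminin alpha, 5 beta and 2 gamma chains, 2 nidogens, 2 fibronectins, 14 integrin alpha and 9 integrin beta chains. The integrin alpha V chain did not match the naming rule and is not described.

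Whole embryos were cultured from NF12 to NF20 with DMH1 (40 µM), an inhibitor of BMP type I receptors, with BIO (60 µM), a GSK3 inhibitor that activates canonical Wnt signalling, or with DMSO as vehicle. Hindgut and foregut pieces were dissected from each treatment, giving 6 groups of 3 libraries. A second experiment used embryos with an hsp:Dkk1GFP transgene, in which heat switches on Dkk1, a secreted Wnt antagonist. Hindgut and foregut pieces came from embryos labelled as heated, for which the protocol gives 37C for 30 min and then 13C, or from unheated ones, as 4 groups of 2 libraries. The genotype field calls every sample wild type, transgenic ones included, and the series has no heated embryos that lack the transgene, so heat and transgene cannot be told apart. Hindgut and foregut mesoderm and endoderm explants form 4 further groups with 2 libraries each, and dorsal explants, with no treatment in their labels, form 1 group with 3 libraries. For hindgut mesoderm the tissue field reads endoderm, and these samples were placed by title and source name. The labels state 2 or 3 independent biological replicates but not how many embryos each one pooled.

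Basement membranes are sheets of laminin trimers, each built of an alpha, a beta and a gamma chain, and of collagen IV, which nidogen and the heparan sulfate proteoglycan perlecan tie together. Fibril-forming collagens and fibronectin fill the space between cell layers, and integrins, each a pair of an alpha and a beta chain, anchor cells to these matrices. In the frog gastrula and neurula, fibronectin fibrils line the surfaces on which mesoderm moves, and the notochord is wrapped in a sheath rich in type II and type IX collagen.

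Each tissue label was checked against marker genes, and several explants also held markers of other tissues. Summed levels of the somite and muscle markers were 9053 to 9098 TPM in dorsal libraries, 135 to 505 TPM in hindgut vehicle libraries and 6.83 to 10.04 TPM in foregut vehicle libraries. Mesoderm explants also held epidermal transcripts, since the 10 epidermal markers tested summed to 5720 to 7426 TPM in hindgut mesoderm against 4.88 to 6.06 TPM in hindgut endoderm, and to 6666 to 8576 TPM in foregut mesoderm against 1.88 to 11.6 TPM in foregut endoderm. In whole explants of this kind, fewer cells of a type and less RNA per cell cannot be told apart. Endoderm markers separated the layers, with 107 to 140 TPM in hindgut mesoderm against 8074 to 8740 TPM in hindgut endoderm, and 133 to 135 TPM in foregut mesoderm against 2372 to 4085 TPM in foregut endoderm. The 13 lateral plate markers separated them less clearly, with 7 higher and 5 lower in hindgut mesoderm and 8 higher and 2 lower in foregut mesoderm. Their sums were 195.1 to 232.7 TPM in hindgut mesoderm against 323.5 to 351.8 TPM in hindgut endoderm. In the foregut they were 221.3 to 285 TPM in mesoderm and 163.9 to 231.2 TPM in endoderm. Somite and muscle markers summed to 602.2 to 911.4 TPM in hindgut mesoderm and 7.45 to 16.51 TPM in foregut mesoderm. In endoderm they summed to 11.33 to 25.58 TPM in hindgut and 4.92 to 74.37 TPM in foregut libraries. Foregut endoderm replicate 1 had the fewest features at 1 TPM or more, 15182, and foregut vehicle replicate 1 the most, 22769. Read depth is unknown for TPM values.

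Fibronectin and the fibronectin receptor chains were among the most abundant members at this stage. Averaged over all 37 libraries, fn1.S stood at 179.5 TPM and fn1.L at 119 TPM. Next came the integrin beta 1 chain, the shared partner of most alpha chains, with 85.8 TPM for itgb1.L and 64.2 TPM for itgb1.S. The alpha 5 chain itga5.L, which pairs with beta 1 as the fibronectin receptor, averaged 41.8 TPM, and the laminin receptor chains itga3.S and itga6.L averaged 34.9 and 21.4 TPM. Of the laminin chains, lamb1.L (47.9 TPM), lamc1.L (41.1 TPM), lamb1.S (34.3 TPM), lamc1.S (24.7 TPM) and the alpha 5 chain lama5.L (20.7 TPM) led, which together are the chains of laminin-511. Nidogen was present as nid2.L (60.3 TPM). Among collagens, col18a1.L, the proteoglycan-like collagen of basement membranes, averaged 44.0 TPM and col2a1.L, the main fibrillar collagen of notochord sheath and cartilage, 19.6 TPM. TPM are scaled by transcript length, so these levels can be set beside each other.

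The 50 names under the floor included the collagen IV chains alpha 1 and alpha 2, the usual pair of this network. No library had more than 0.56 TPM of col4a1.L, 0.75 TPM of col4a1.S, 0.12 TPM of col4a2.L or 0.22 TPM of col4a2.S. Collagen IV was represented instead by col4a5 and col4a6-like, each with both homeologs. The other nidogen, nid1.L, did not exceed 0.73 TPM, and the laminin alpha 3 chain lama3.L stayed at or under 0.20 TPM, although lamb3.S passed the floor.

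**Figure D1:**
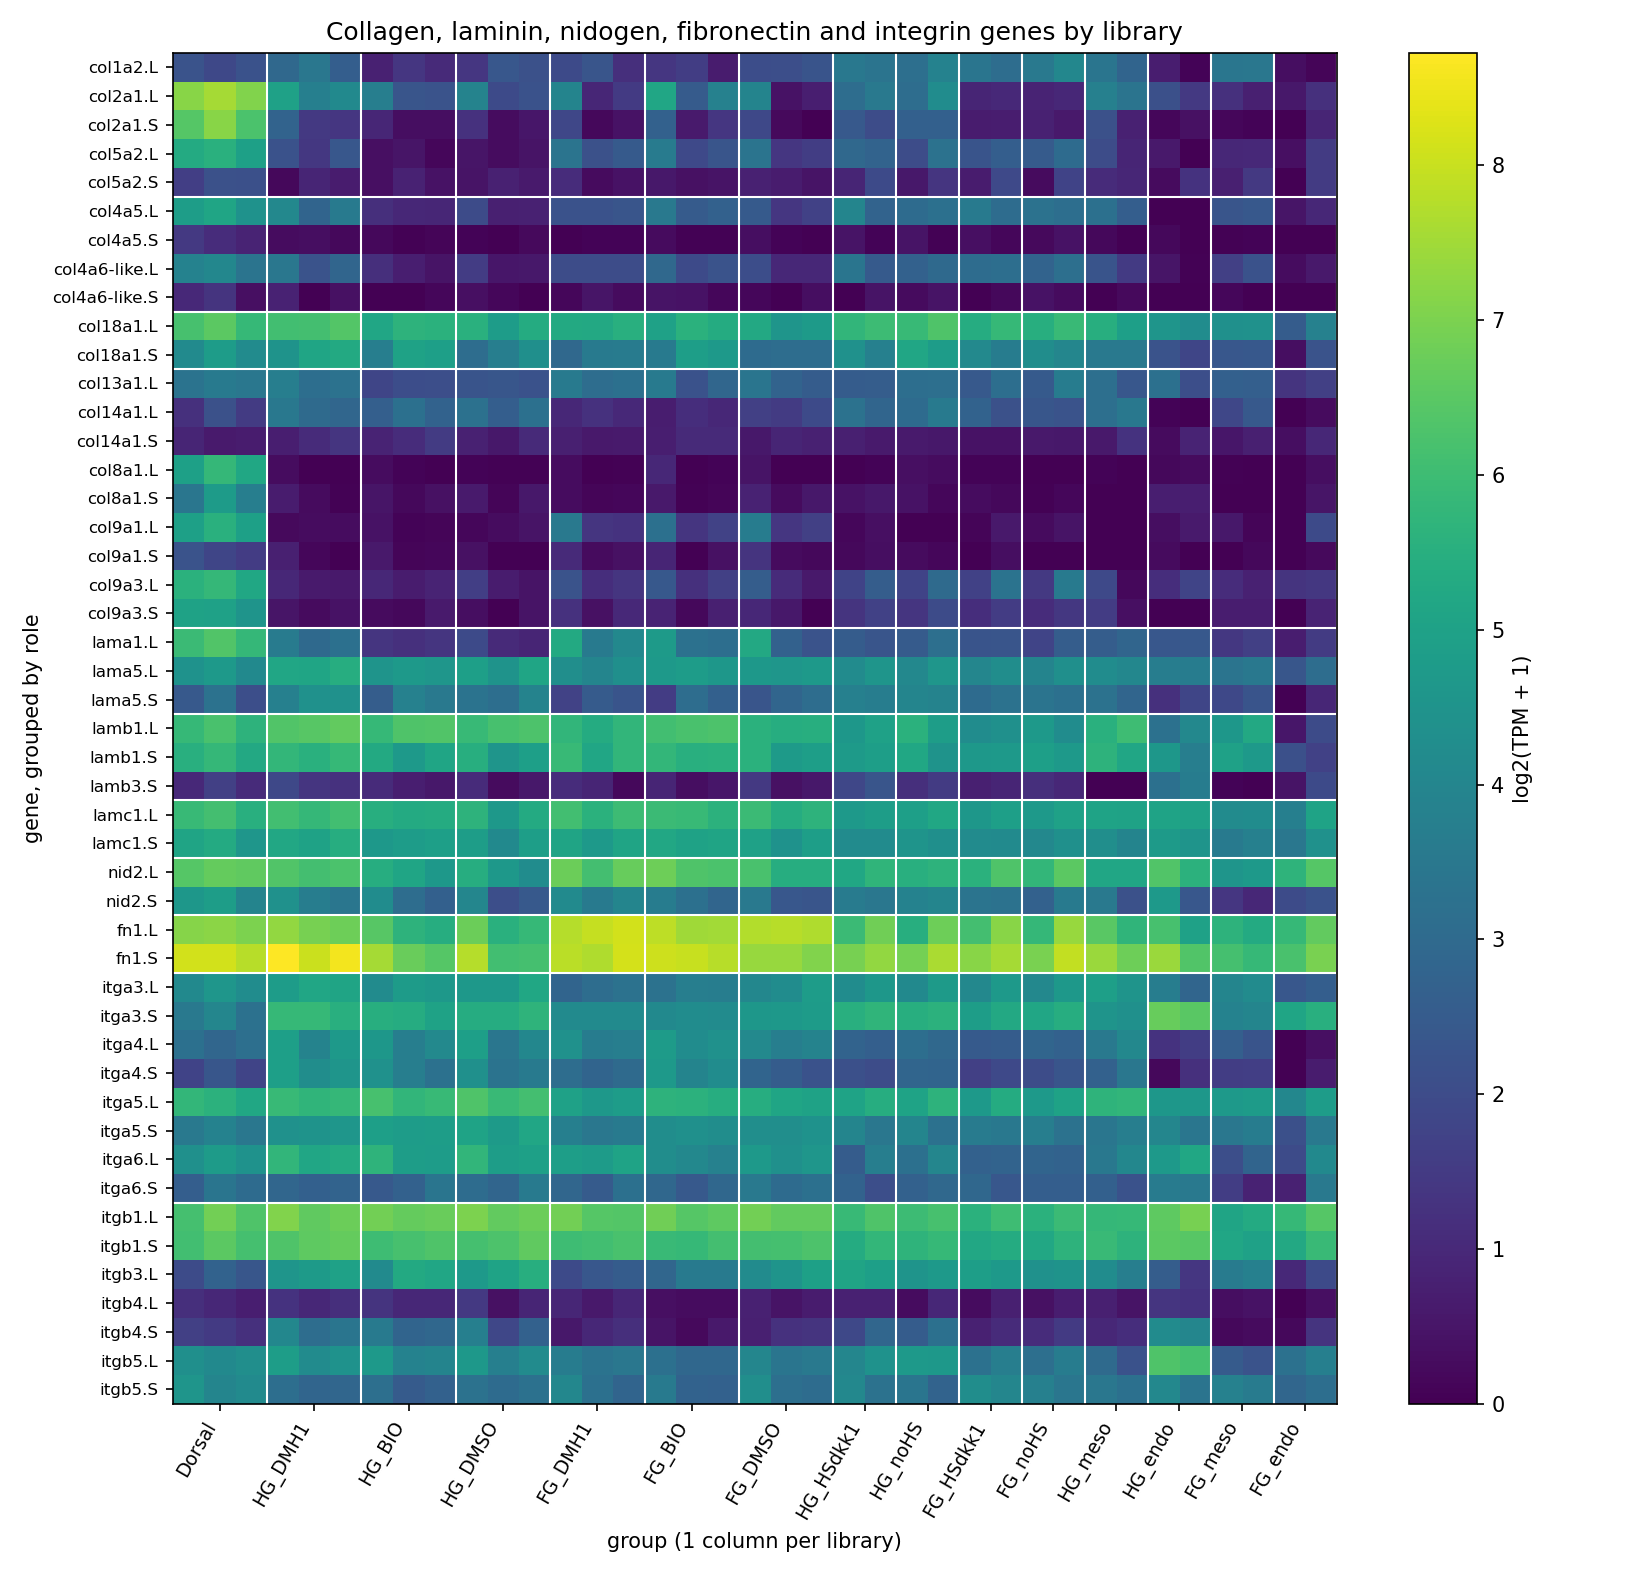
Heat map of log2(TPM + 1) for the named matrix and integrin subunits (rows, ordered by role) in each of the 37 libraries (columns, ordered by group, where HG is hindgut, FG foregut, noHS unheated and HSdkk1 labelled heated). Fibronectin and the beta 1 integrins are high in every group, with fn1.S between 56.3 and 423 TPM, while fibrillar and type IX collagens stand out in the 3 dorsal libraries.

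Dorsal explants, rich in somite, notochord and neural markers, had several times the collagen transcripts of gut explants. Summed over the 39 collagen members, dorsal libraries had 750 ± 175 TPM, hindgut vehicle libraries 89.6 ± 18.7 TPM and foregut vehicle libraries 94.9 ± 50.8 TPM (SD, n = 3 each). In limma's test on log2(TPM + 1), with p-values adjusted over all 28863 features, 39 of 83 members were higher and 11 lower in dorsal than in hindgut vehicle explants, where 33.7% of all features were called, 15.6% higher and 18.1% lower. Against foregut vehicle explants 34 were higher and 8 lower, with 32.3% of all features called, 10.9% higher and 21.4% lower. The median log2 difference of members was 0.62 over hindgut and 0.44 over foregut, against -0.07 and -0.23 for all features tested. For 8 of the members higher in both comparisons (col11a2p1.S, col4a5.S, col4a6-like.S, col8a1.L, col8a1.S, col9a2.S, itga7.L and lamb2.L) the floor was reached in no group other than dorsal, so that they had to be higher there. Differences on this scale understate the change of genes near 0 TPM. The test takes the spread between libraries from all 15 groups. Fitted to the compared groups alone, it called 39 members over hindgut and 40 over foregut vehicle.

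Of the 15 fibrillar collagen members, 11 were higher in dorsal explants than in each gut region. Among these 11, col11a2p1.S reached the floor in dorsal explants alone and so had to be higher there. For col2a1.L, dorsal libraries had 144, 185 and 132 TPM, hindgut vehicle libraries 13.8, 2.89 and 3.56 TPM and foregut vehicle libraries 14.3, 0.35 and 0.68 TPM. The groups do not overlap, and the difference was 4.58 (SE 0.76, adjusted p = 2.75e-05) over hindgut and 5.55 (SE 0.76, adjusted p = 2.34e-06) over foregut. Its homeolog col2a1.S averaged 101 ± 36.7 TPM in dorsal, 0.68 ± 0.607 TPM in hindgut and 0.947 ± 1.495 TPM in foregut vehicle explants. Type V collagen chains, which nucleate fibrils, were also higher, as for col5a2.L with 39.4, 45.5 and 30.2 TPM in dorsal, 0.40, 0.23 and 0.38 TPM in hindgut and 9.25, 1.63 and 1.97 TPM in foregut libraries. That is a log2 difference of 4.86 over hindgut and 3.17 over foregut (adjusted p = 5.72e-09 and 7.4e-06). The type V relatives col5a1-like.L, col5a1-like.S, col5a3-like.L and col5a3-like.S were higher over both regions too, with dorsal means of 12.36, 14.7, 39.5 and 16.1 TPM.

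Type IX collagens, which decorate type II fibrils, followed the same order. In dorsal libraries col9a3.L had 46.2, 54.8 and 35.9 TPM, against 2.07, 0.60 and 0.38 TPM in hindgut and 4.99, 1.11 and 0.53 TPM in foregut vehicle libraries (log2 difference 4.6, SE 0.55, adjusted p = 2.04e-07 over hindgut; log2 difference 4.1, SE 0.55, adjusted p = 1.7e-06 over foregut). The chain col9a1.L averaged 35.4 ± 8.67 TPM in dorsal, 0.23 ± 0.141 TPM in hindgut and 5.13 ± 5.65 TPM in foregut vehicle explants. All 6 type IX members were called higher over both regions, though col9a2.S reached the floor in dorsal explants alone and so had to be higher there. The short-chain network collagen col8a1.L had 30.1, 55.3 and 35.5 TPM in dorsal libraries and no more than 0.39 TPM in any vehicle library. Both col8a1 copies reached the floor in dorsal explants alone. Type VI chains were low, col6a2.L averaging 2.03 TPM in dorsal explants. For col6a2.S, 3 libraries reached 1 TPM, at 1 and 1.39 TPM in dorsal and 1.03 TPM in unheated foregut explants. It is thus a member only through its dorsal levels, and a higher level there follows from the filter.

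Basement membrane members rose in part. All 4 collagen IV members were higher over both regions, led by col4a5.L with 27.8, 33.7 and 20.8 TPM in dorsal, 3.01, 0.69 and 0.73 TPM in hindgut and 4.61, 1.63 and 2.25 TPM in foregut vehicle libraries. Of these 4, col4a5.S and col4a6-like.S reached the floor in dorsal explants alone and so had to be higher there. Both nidogen 2 copies were higher, nid2.L averaging 93.8 ± 8.74 TPM in dorsal, 28.3 ± 12.9 TPM in hindgut and 53.1 ± 18.4 TPM in foregut vehicle explants. The alpha 1 chain lama1.L, the first laminin alpha chain of the vertebrate embryo, had 61.4, 81.0 and 55.5 TPM in dorsal, 2.89, 1.04 and 0.88 TPM in hindgut and 37.4, 5.49 and 3.74 TPM in foregut vehicle libraries. Its difference was 4.75 (SE 0.53, adjusted p = 7.29e-08) over hindgut and 2.64 (SE 0.53, adjusted p = 0.000355) over foregut. The alpha 2 chain lama2.L and the beta 2 chain lamb2.L, both typical of muscle basement membranes, were higher too, at dorsal means of 1.60 and 4.67 TPM. The chain lamb2.L reached the floor in dorsal explants alone. For lama2.L, 3 libraries reached 1 TPM, at 2.98 and 1.06 TPM in dorsal and 1.09 TPM in DMH1 hindgut explants. Both are thus members only through their dorsal levels, and their calls follow from the filter. The ubiquitous chain lamb1.L missed the threshold in both comparisons (-0.21 over hindgut, 0.41 over foregut). Fibronectin was higher over hindgut in both copies (1.08 for fn1.L and 1.35 for fn1.S, adjusted p = 0.0387 and 0.00457) and in neither over foregut (-0.61 and 0.75).

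Several integrin chains were lower in dorsal explants. Among the 14 alpha chains 1 was higher and 6 lower in dorsal than in hindgut vehicle explants, where 15.6% of all features were higher and 18.1% lower. Against foregut vehicle explants 1 alpha chain was higher and 3 lower, where 10.9% of all features were higher and 21.4% lower. The share of alpha chains lower over foregut was thus close to that of all features. Of 9 beta chains 2 were lower over each region, also close to the share of all features. The alpha chain higher over both regions was itga7.L, the laminin receptor chain of skeletal muscle, with 16.8, 16.5 and 9.43 TPM in dorsal libraries against 0, 0.05 and 0.05 TPM in hindgut and 0.11, 0.04 and 0 TPM in foregut vehicle libraries. It reached the floor in dorsal explants alone and so had to be higher there. The beta 3 chain itgb3.L, known from platelets and as a partner of the alpha V chain, was lower, with 3.00, 5.71 and 4.06 TPM in dorsal, 25.2, 32.3 and 43.5 TPM in hindgut and 17.3, 21.7 and 29.8 TPM in foregut vehicle libraries (log2 difference -2.72, SE 0.32, adjusted p = 1.5e-07 over hindgut; log2 difference -2.19, SE 0.32, adjusted p = 5.96e-06 over foregut). Of the alpha chains, itga3.S was lower at 11.4 ± 3.33 TPM in dorsal, 44.3 ± 4.69 TPM in hindgut and 24.99 ± 1.73 TPM in foregut vehicle explants, and itga5.S and itga4.L were lower over both regions as well. Among names matched by spelling, itgb1bp2.L, which encodes the muscle protein melusin, averaged 90.3 ± 5.69 TPM in dorsal and 0.49 TPM in hindgut vehicle explants.

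**Figure D2:**
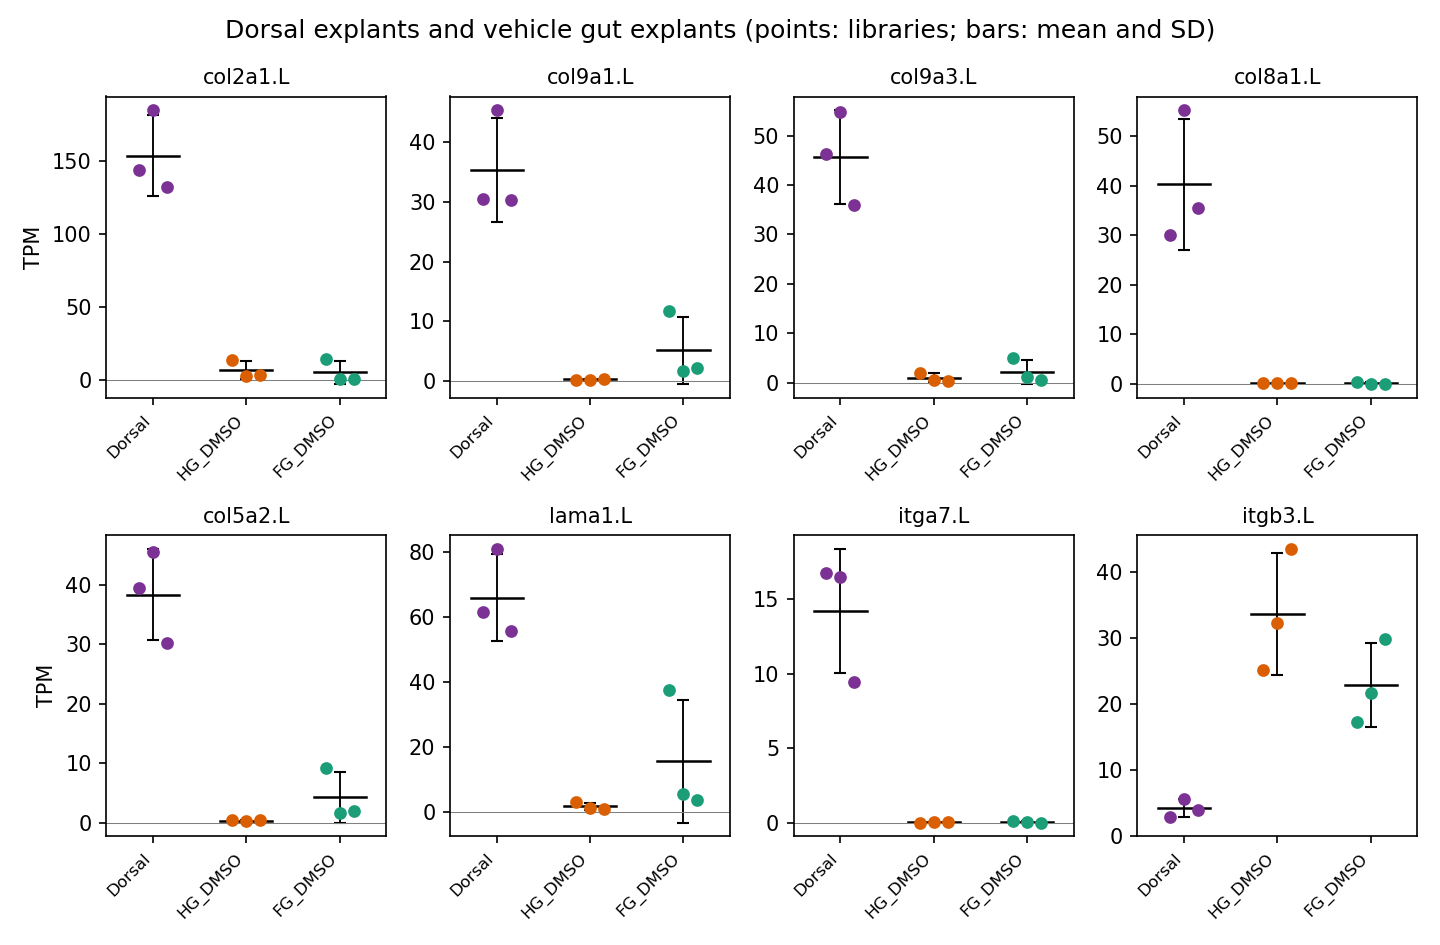
TPM of 8 members in dorsal, hindgut vehicle and foregut vehicle explants, where points are libraries and bars the mean and SD of 3 libraries. The 6 collagen and laminin chains and itga7.L are highest in the dorsal libraries, and itgb3.L is lowest there, at 4.26 TPM on average.

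Genes that assemble or bind these matrices were tested beside the members. Over hindgut vehicle 15.6% of all features were higher and 18.1% lower in dorsal explants. The partner and marker lists passed the same floor as the members. A listed gene that reached it in dorsal explants alone had to be higher there, and such genes were not counted. Of 38 collagen-processing genes 17 were higher and 3 lower in dorsal than in hindgut vehicle explants, among them the crosslinking enzymes loxl3.S (11.2 ± 3.75 TPM in dorsal, 0.21 ± 0.114 TPM in hindgut) and loxl1.L (36.8 ± 4.07 and 6.32 ± 2.63 TPM in the same order). Interstitial matrix genes gave 24 higher and 6 lower of 48, with thbs4.S at 189 ± 33.6 TPM in dorsal and 0.137 ± 0.172 TPM in hindgut vehicle explants. The hyaluronan synthase has1.S was lower, at 45 ± 17.5 TPM in dorsal against 3711 ± 1280 TPM in hindgut. Cytoplasmic partners of integrins gave 17 higher and 15 lower of 59, including the muscle filamin flnc.S, higher at 123 ± 26.03 TPM against 2.41 ± 1.49 TPM in hindgut. Most muscle, notochord, neural and neural crest markers were higher in the same dorsal libraries. Over hindgut vehicle 14 of 16, 6 of 11, 12 of 12 and 9 of 12 were called higher, in that order. Of the notochord and neural crest markers 1 each was lower there. Over foregut vehicle 16, 7, 11 and 10 were higher, and 3 notochord markers were lower. The part of these markers in the collagen difference was not tested. Lower in the same libraries were 14 of 19 endoderm, 7 of 19 blood and endothelium and 9 of 10 epidermal markers over hindgut vehicle, and 18, 16 and 8 of them over foregut vehicle. Blood and endothelium markers summed to 211 to 220.4 TPM in dorsal, 468 to 735 TPM in hindgut vehicle and 1426 to 1691 TPM in foregut vehicle libraries, and the part of these markers in the lower integrin levels was not tested.

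Within each gut region, mesoderm and endoderm explants differed in laminin, collagen and integrin chains. In the hindgut 18 members were higher and 11 lower in mesoderm than in endoderm, with 33.2% of all features called, 21.6% higher and 11.6% lower. In the foregut 17 were higher and 6 lower, with 26.5% of all features called, 18% higher and 8.5% lower. The share of members called, 34.9% and 27.7%, was close to that of all features in both regions. Without foregut mesoderm replicate 1 the foregut count was 15, and without replicate 2 it was 12. In the hindgut it was 19 without mesoderm replicate 1. Fitted to the compared groups alone, 17 members were called in the hindgut and 2 in the foregut.

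The laminin beta 1 chain was higher in mesoderm in both copies and both regions. For lamb1.L, hindgut mesoderm libraries had 45.7 and 63.5 TPM against 8.62 and 15.9 TPM in hindgut endoderm, and foregut mesoderm libraries 23.8 and 37.9 TPM against 0.44 and 2.97 TPM in foregut endoderm. The difference was 2.11 (SE 0.34, adjusted p = 1.35e-05) in the hindgut and 3.7 (SE 0.34, adjusted p = 1.22e-09) in the foregut. For lamb1.S the hindgut means were 41.7 TPM in mesoderm and 17.7 TPM in endoderm, and the foregut means 27.6 and 2.81 TPM in the same order. Beta 3, a laminin chain of epithelia, ran opposite, as lamb3.S had 0 and 0 TPM in the hindgut mesoderm libraries against 8.26 and 11.6 TPM in hindgut endoderm, and 0.05 and 0 TPM in foregut mesoderm against 0.36 and 2.9 TPM in foregut endoderm (adjusted p = 1.26e-07 and 0.0336). The gamma 1 chain lamc1.L, shared by most laminins, missed the threshold in both regions, with log2 differences of 0.02 and -0.18. Nidogen nid2.L was lower in foregut mesoderm, 23.7 ± 1.82 TPM against 67.8 ± 25.4 TPM in foregut endoderm (log2 difference -1.43, SE 0.37, adjusted p = 0.0038), and missed the threshold in the hindgut (-0.82). Without foregut endoderm replicate 2 its foregut difference was -1.05. In a fit to the compared groups alone nid2.L was not called in the foregut (adjusted p = 0.143).

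Type I collagen, the main collagen of loose connective tissue, was higher in mesoderm. In hindgut mesoderm col1a2.L had 9.41 and 5.97 TPM against 0.61 and 0.07 TPM in hindgut endoderm, and in foregut mesoderm 9.82 and 10.1 TPM against 0.24 and 0.08 TPM in foregut endoderm (log2 difference 2.7, SE 0.38, adjusted p = 1.8e-06 in the hindgut; log2 difference 3.25, SE 0.38, adjusted p = 1.03e-07 in the foregut). Its partner chain col1a1.S was also higher in both, at no more than 2.17 TPM in any mesoderm library. The fibril-associated collagen col14a1.L averaged 9.15 ± 1.43 TPM in hindgut mesoderm against 0.025 ± 0.035 TPM in hindgut endoderm, and 3.49 ± 1.26 TPM in foregut mesoderm against 0.10 ± 0.141 TPM in foregut endoderm. Collagen IV followed with col4a5.L, at 6.69 ± 2.16 TPM in hindgut mesoderm, where the endoderm libraries are listed at 0, and 4.14 ± 0.248 TPM in foregut mesoderm against 0.685 ± 0.389 TPM in foregut endoderm.

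Integrin chains divided between the layers. The alpha 4 chain itga4.L, a receptor for fibronectin and VCAM1, was higher in mesoderm, with 10.4 and 15.8 TPM against 1.41 and 1.98 TPM in hindgut endoderm and 5.24 and 3.83 TPM against 0 and 0.29 TPM in foregut endoderm. The beta 3 chain itgb3.L was higher in mesoderm too, at 15.3 ± 4.002 TPM against 3.26 ± 2.37 TPM in hindgut endoderm and 12.1 ± 1.17 TPM against 1.95 ± 1.32 TPM in foregut endoderm. Endoderm in turn had more of itgb5.L, a copy of the beta 5 chain, which partners alpha V. For itgb5.L, hindgut mesoderm libraries had 7.05 and 3.55 TPM against 79.9 and 70.6 TPM in hindgut endoderm, and foregut mesoderm libraries 4.65 and 3.73 TPM against 8.59 and 12.52 TPM in foregut endoderm. The layers do not overlap in either region (log2 difference -3.65, SE 0.31, adjusted p = 4e-10 in the hindgut; log2 difference -1.14, SE 0.31, adjusted p = 0.00694 in the foregut). With both copies of the gene summed, the foregut difference was -0.08 (adjusted p = 0.952). The foregut difference of itgb5.L was -0.89 without endoderm replicate 2 and -1.01 without mesoderm replicate 2. In a fit to the compared groups alone it was not called there (adjusted p = 0.189). The hemidesmosome chain itgb4.S was lower in hindgut mesoderm, 0.94 and 1.23 TPM against 17.6 and 15.2 TPM in hindgut endoderm (log2 difference -3.06, SE 0.45, adjusted p = 3.98e-06), as was its partner itga6.L, 10.4 and 15.4 TPM against 25.6 and 35.6 TPM (log2 difference -1.19, SE 0.46, adjusted p = 0.0467). For itga6.L the hindgut call was lost without any of the 4 libraries, at log2 differences between -1.46 and -0.93. Neither passed in the foregut, where the log2 differences were -0.54 for itgb4.S and -0.6 for itga6.L. The common chain itgb1.L was lower in mesoderm in both regions, at 55.9 TPM against 108 TPM in hindgut endoderm and 36.1 TPM against 71.1 TPM in foregut endoderm.

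Partner genes were divided as well, beside 33.2% of all features called between hindgut layers, 21.6% higher and 11.6% lower in mesoderm. No list was tested against these shares. In hindgut mesoderm against endoderm, basement membrane partners had 8 higher and 7 lower of 31, interstitial matrix genes 9 and 10 of 48, collagen-processing genes 11 and 4 of 38, integrin partners 19 and 7 of 59, and matrix proteases and their inhibitors 9 and 8 of 37. The collagen-binding glycoprotein sparc.L averaged 113 ± 0.0919 TPM in mesoderm against 10.8 ± 1.48 TPM in endoderm, and the actin crosslinker actn1.L 118 ± 9.40 TPM against 5.68 ± 0.721 TPM. Netrin ntn1.L was lower, at 2.07 ± 1.83 TPM in mesoderm against 50.6 ± 0.0283 TPM in endoderm (SD, n = 2 each). All 10 epidermal markers were higher in the mesoderm of both regions, beside each of these differences. In the hindgut 13 of 16 somite and muscle markers were higher in mesoderm as well and 0 lower. The part of these markers in the layer differences was not tested.

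Hindgut endoderm had more of several integrin and laminin chains than foregut endoderm. Here 16 members were higher and 0 lower, where 10.7% of all features were higher, 7.86% lower and 18.6% called in either direction. The members higher comprised 5 of 14 integrin alpha chains, 4 of 9 beta chains, 2 of 5 laminin alpha and 3 of 5 laminin beta chains, and 2 of 39 collagens. One of the laminin alpha chains, lama4.L, reached the floor in no group other than hindgut endoderm and so had to be higher there. The beta 4 chain itgb4.S averaged 16.4 ± 1.68 TPM in hindgut against 0.82 ± 0.948 TPM in foregut endoderm (log2 difference 3.36, SE 0.45, adjusted p = 4.11e-06), and its partner itga6.L 30.6 ± 7.04 TPM against 9.80 ± 9.60 TPM (log2 difference 1.89, SE 0.46, adjusted p = 0.00375). Without foregut endoderm replicate 1 the itga6.L difference was 0.83 (adjusted p = 0.255). For itgb5.L the difference was 2.74 (SE 0.31, adjusted p = 4.4e-07), for lamb1.L 2.41 (SE 0.34, adjusted p = 7.43e-06), for lamb1.S 2.25 (SE 0.32, adjusted p = 1.07e-05) and for lamb3.S 2.23 (SE 0.41, adjusted p = 0.000228), and the groups do not overlap. The laminin receptor chain itga3.S averaged 96.8 ± 9.96 TPM in hindgut against 39.4 ± 7.45 TPM in foregut endoderm (adjusted p = 3.64e-05). These counts rest in part on foregut endoderm replicate 1, the library with the fewest features: without it 9 members were called, 7 higher and 2 lower, and 0 in a fit to the compared groups alone. Endoderm markers also differed, at 8074 to 8740 TPM in hindgut against 2372 to 4085 TPM in foregut endoderm.

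The layer difference itself varied with region for 6 members, all more negative in the hindgut, where 3.51% of all features were called in that direction and 8.32% in either. On the log2 scale the difference between layers, hindgut minus foregut, was -2.52 (SE 0.64, adjusted p = 0.0113) for itgb4.S, -2.51 (SE 0.44, adjusted p = 0.00042) for itgb5.L, -2.27 (SE 0.58, adjusted p = 0.0117) for lamb3.S, -1.59 (SE 0.48, adjusted p = 0.0354) for lamb1.L, -1.68 (SE 0.46, adjusted p = 0.0194) for lamb1.S and -0.95 (SE 0.29, adjusted p = 0.0394) for lama4.L. For lamb1.L and lamb1.S the mesoderm excess was smaller in the hindgut, while for itgb4.S, itgb5.L and lamb3.S the endoderm excess was larger there. The laminin alpha 4 chain lama4.L reached 1 TPM in no group other than hindgut endoderm, at 1.55 and 1.51 TPM, so its difference follows from the filter. Without foregut endoderm replicate 2 the count was 11, and in a fit to these 4 groups alone it was 0.

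**Figure D3:**
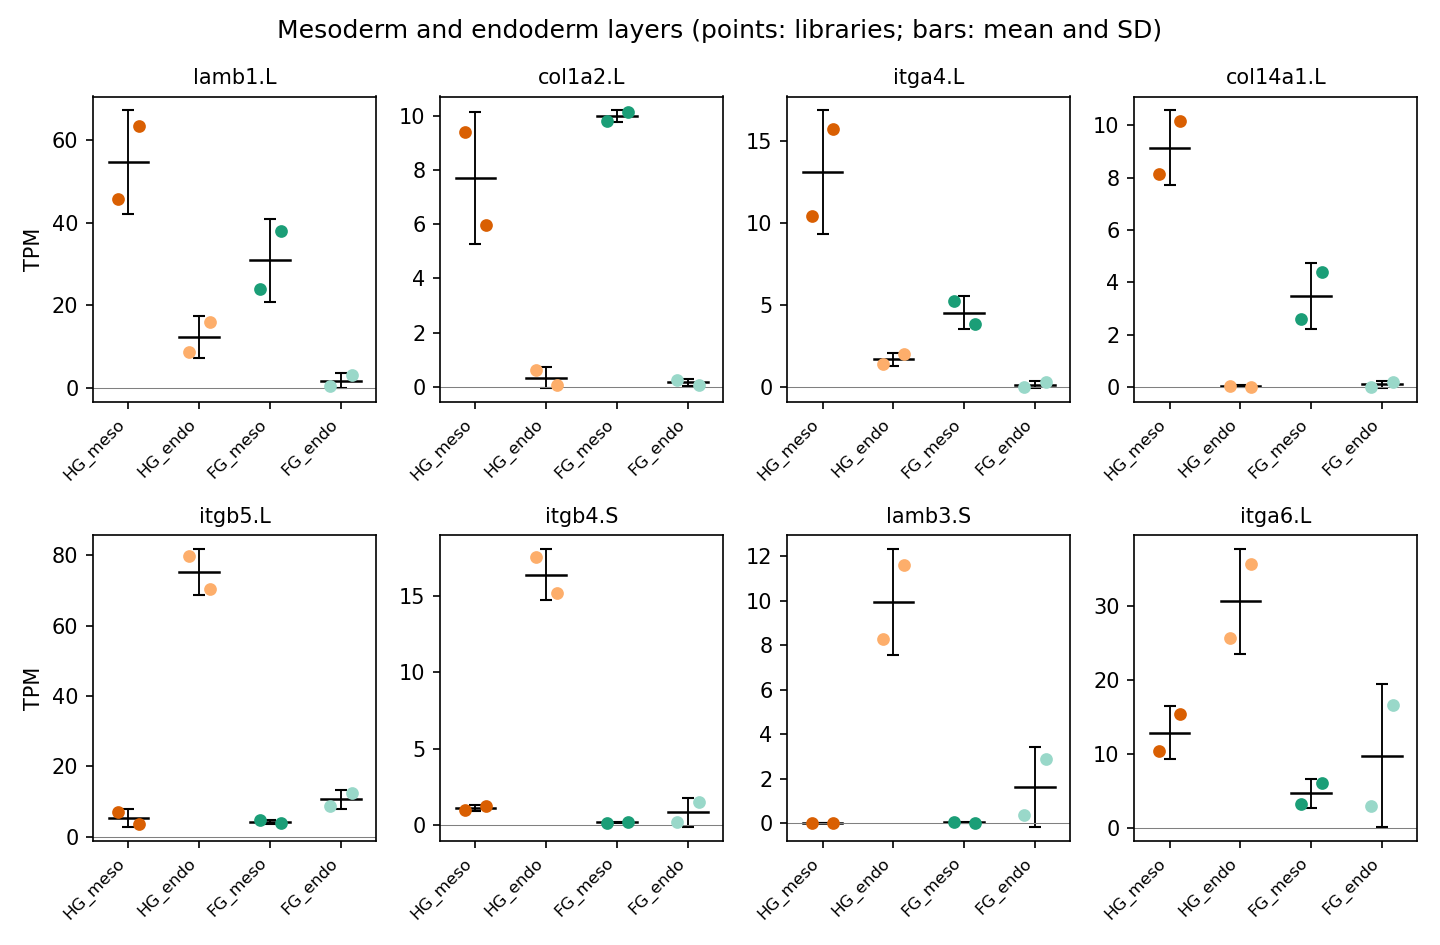
TPM of 8 members in hindgut mesoderm (HG_meso), hindgut endoderm (HG_endo), foregut mesoderm (FG_meso) and foregut endoderm (FG_endo), where points are libraries and bars the mean and SD of 2 libraries. Laminin beta 1, type I and XIV collagen and itga4.L are higher in mesoderm, while itgb5.L, itgb4.S and lamb3.S are highest in hindgut endoderm, at means of 75.2, 16.4 and 9.95 TPM.

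Between whole hindgut and foregut explants in vehicle, hindgut had more of 4 integrin genes and less fn1.L and lama1.L, a fibronectin and a laminin alpha 1 gene. Of 83 members 5 were higher and 7 lower in hindgut, where 7.47% of all features were called, 2.38% higher and 5.08% lower. The alpha 5 chain itga5.L had 80.0, 58.9 and 68.4 TPM in hindgut against 42.5, 34.0 and 31.4 TPM in foregut libraries (log2 difference 0.92, SE 0.2, adjusted p = 0.00325). Also higher were itga3.S (0.8), itga4.S (1.24), itgb4.S (1.67) and col14a1.L (1.32), with adjusted p of 0.00171, 0.0114, 0.00325 and 0.00116. With both itga4 copies summed the difference was 0.61 (adjusted p = 0.317). The itga4.S call was lost without hindgut vehicle replicate 1 (0.93, adjusted p = 0.112) or foregut vehicle replicate 3 (1.09, adjusted p = 0.0699). With the number 1 inhibitor and vehicle libraries left out together, itga4.S (1.07, adjusted p = 0.0739) and itgb4.S (1, adjusted p = 0.171) were not called. Without foregut vehicle replicate 1 the count of 12 was 7, 5 higher and 2 lower. It was likewise 7, 5 higher and 2 lower, without hindgut vehicle replicate 2. A fit to the compared groups alone called 1.

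Fibronectin was the most abundant of the members lower in hindgut. For fn1.L, hindgut libraries had 109, 45.1 and 56.2 TPM and foregut libraries 209.6, 221 and 207 TPM (log2 difference -1.69, SE 0.4, adjusted p = 0.00659). Its homeolog fn1.S averaged 119 ± 85.5 TPM in hindgut and 154 ± 16.97 TPM in foregut (-0.59, adjusted p = 0.44). With both fibronectin copies summed the difference was -1.13 (adjusted p = 0.0639). Without hindgut vehicle replicate 2 the fn1.L difference was -1.43 (adjusted p = 0.0585). The laminin chain lama1.L had 2.89, 1.04 and 0.88 TPM in hindgut against 37.4, 5.49 and 3.74 TPM in foregut libraries (log2 difference -2.1, SE 0.53, adjusted p = 0.0112). Without foregut vehicle replicate 1 it was -1.17 (adjusted p = 0.161). The lama1.L call was also lost without hindgut vehicle replicate 2 or 3 (adjusted p = 0.0541 and 0.0588). Collagens lower in hindgut were col9a1.L at 0.23 TPM against 5.13 TPM, col5a2.L at 0.337 TPM against 4.28 TPM, col24a1.L (-0.78) and col3a1.S (-1.08). Foregut vehicle libraries had 11.65, 1.60 and 2.14 TPM of col9a1.L. Without foregut vehicle replicate 1 its log2 difference was -1.22 (adjusted p = 0.262). The col9a1.L call was also lost without hindgut vehicle replicate 1 or 2 (adjusted p = 0.0796 and 0.0704). The leukocyte chain itgb2.L was lower as well (-1.42), beside blood and endothelium markers that summed to 468 to 735 TPM in hindgut against 1426 to 1691 TPM in foregut vehicle libraries. Neural markers summed to 33.5 to 44.9 TPM in hindgut against 228 to 494 TPM in foregut, and the part of either list in these differences was not tested.

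The unheated transgenic explants give the regional comparison in separate libraries, though over 2 libraries per group. There itgb5.L was the 1 member called, where 1.39% of all features were, at 25.6 and 24.3 TPM in hindgut against 8.04 and 11.7 TPM in foregut libraries (log2 difference 1.28, SE 0.31, adjusted p = 0.0331), and without any of the 4 libraries it was not called. Of the 12 members called in vehicle, the log2 differences here were 1.6 for itgb4.S, 1.01 for col14a1.L, 0.66 for itga4.S, 0.49 for itga5.L, 0.25 for itga3.S and -0.45 for fn1.L, none past the threshold. For the others they were -1.28 for itgb2.L, -0.36 for col9a1.L, -0.29 for col3a1.S, -0.09 for col5a2.L, 0.16 for col24a1.L and 0.65 for lama1.L, again none past the threshold. The sign was opposite to that in vehicle for col24a1.L, at -0.78 in vehicle, and for lama1.L, at -2.1 in vehicle, and the same for the other 10. A test of the change in regional difference between the experiments called 0 of 83 members, lama1.L included (2.75, adjusted p = 0.359), with 0.184% of all features called.

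Hindgut mesoderm over foregut mesoderm gave 3 higher and 0 lower members, where 2.35% of all features were called and 1.44% were higher: col14a1.L (log2 difference 1.2, SE 0.32, adjusted p = 0.0437), itga4.S (log2 difference 1.5, SE 0.38, adjusted p = 0.0311) and itga5.L (log2 difference 0.96, SE 0.25, adjusted p = 0.0337). The hindgut and foregut mesoderm libraries do not overlap for these genes, itga5.L having 50.5 and 52.6 TPM in hindgut and 25.4 and 26.6 TPM in foregut mesoderm. All 3 were also among the members higher in vehicle hindgut explants. Of 16 somite and muscle markers 10 were higher and 0 lower in hindgut mesoderm. They summed to 602.2 to 911.4 TPM there against 7.45 to 16.51 TPM in foregut mesoderm, and their part in these differences was not tested. Each call depends on single libraries, since 0 were called without foregut mesoderm replicate 1, foregut mesoderm replicate 2 or hindgut mesoderm replicate 2, and 1 without hindgut mesoderm replicate 1. With median-of-ratios scaling 2 were higher and 1 lower. Blocked on replicate number, more members were called, most but not all of them higher, as given in the last section.

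Hindgut explants of embryos in the BMP receptor blocker DMH1 had more transcript of 2 collagen IV genes, of fn1.S and of nid2.L than vehicle explants, the last 2 less stably. Under DMH1, 6 members were higher and 0 lower in hindgut explants, where 1.16% of all features were called and 0.939% were higher, and the median log2 difference of members was 0.25 against 0.07 for all features. Summed over the 39 collagen members, DMH1 hindgut explants had 197 ± 17.8 TPM and vehicle hindgut explants 89.6 ± 18.7 TPM (SD, n = 3 each). A large part of both sums came from the 2 col18a1 copies, and neither was called in this test. For col18a1.L, DMH1 libraries had 66.08, 68.71 and 82.05 TPM against 45.9, 27.36 and 40.52 TPM in vehicle libraries. For both col18a1 copies every DMH1 library is above every vehicle library. Collagen IV chains made up a small part of the sums but had the largest log2 differences among the 6 called members. For col4a5.L, DMH1 libraries had 15.7, 6.01 and 10.98 TPM against 3.01, 0.69 and 0.73 TPM in vehicle libraries (log2 difference 2.3, SE 0.36, adjusted p = 0.000424), and for col4a6-like.L 9.90, 3.69 and 6.21 TPM against 1.91, 0.45 and 0.46 TPM (log2 difference 1.97, SE 0.36, adjusted p = 0.0026). The groups do not overlap for either chain.

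Fibronectin and nidogen rose in the same libraries. DMH1 hindgut libraries had 423, 262 and 375 TPM of fn1.S against 217, 67.4 and 71.0 TPM in vehicle libraries (log2 difference 1.76, SE 0.36, adjusted p = 0.00825), and 80.8, 67.7 and 75.3 TPM of nid2.L against 42.8, 24.4 and 17.9 TPM (log2 difference 1.45, SE 0.3, adjusted p = 0.00913). Every DMH1 library is above every vehicle library for both. The homeolog fn1.L averaged 130.0 ± 24.7 TPM under DMH1 and 70.1 ± 34.2 TPM in vehicle (0.97, adjusted p = 0.479). At low levels, col6a2.L averaged 2.44 ± 0.757 TPM under DMH1 against 0.33 ± 0.207 TPM in vehicle, and col1a1.S 1.16 ± 0.384 TPM against 0.123 ± 0.057 TPM (adjusted p = 0.00376 and 0.0167). The count was 3 without hindgut vehicle replicate 2 or 3, and 0 when the DMH1 and vehicle hindgut groups were fitted alone. Both fn1.S and nid2.L lost their calls there, fn1.S at 1.47 and 1.51 (adjusted p = 0.108 and 0.0777) without replicate 2 and 3. For nid2.L the values were 1.39 and 1.18 (adjusted p = 0.0681 and 0.0979). Without DMH1 replicate 1 neither was called (adjusted p = 0.0622 for fn1.S and 0.0532 for nid2.L). The fn1.S call was also lost without DMH1 replicate 3 (1.7, adjusted p = 0.0543). Blocked on replicate number, the test called 10 members, all higher, the 4 added being lama1.L (1.98), col6a1.L (1.27), col18a1.S (1.22) and col13a1.L (1.12).

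Other matrix genes rose in DMH1 hindgut explants too, where 0.939% of all features were higher and 0.225% lower. Interstitial matrix genes had 8 higher and 0 lower of 48, with the elastic fibre protein emilin1.L at 41.7 ± 12.9 TPM under DMH1 against 10.7 ± 3.71 TPM in vehicle, periostin postn.S at 9.05 ± 5.76 TPM against 0.693 ± 0.768 TPM, and fibrillin fbn3.S at 16.0 ± 7.79 TPM against 1.68 ± 1.18 TPM. Basement membrane partners had 3 higher and 0 lower of 31, including frem1.L at 12 ± 1.38 TPM under DMH1 against 1.33 ± 0.535 TPM in vehicle. Of collagen-processing genes 1 of 38 was called, the crosslinking enzyme loxl1.L (20.4 ± 7.24 TPM under DMH1, 6.32 ± 2.63 TPM in vehicle). Integrin partners gave 4 higher and 0 lower of 59, among them flnc.S at 20.5 ± 4.43 TPM under DMH1 and 2.41 ± 1.49 TPM in vehicle. In the same libraries 6 of 16 somite and muscle markers were higher, summing to 525 to 722 TPM under DMH1 against 135 to 505 TPM in vehicle, and their part in the matrix difference was not tested.

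In DMH1 foregut explants no collagen, laminin, nidogen or fibronectin gene passed the test, and 2 integrin chains were lower. Of 83 members 0 were higher and 2 lower, where 0.738% of all features were called and 0.509% were lower. DMH1 foregut libraries had 2.91, 4.20 and 4.78 TPM of itgb3.L against 17.3, 21.7 and 29.8 TPM in vehicle libraries (log2 difference -2.26, SE 0.32, adjusted p = 0.000128), and 6.05, 7.62 and 8.74 TPM of itga3.L against 15.6, 17.7 and 27.2 TPM (log2 difference -1.29, SE 0.26, adjusted p = 0.00684). All DMH1 values lie under all vehicle values for both chains. The count was 1 without foregut vehicle replicate 3, 1 without DMH1 replicate 1 and 0 in a fit to the compared groups alone. Blood and endothelium markers summed to 659 to 809 TPM in DMH1 against 1426 to 1691 TPM in vehicle foregut libraries, with 7 of 19 lower, and their part in the lower itgb3.L level was not tested. The chains that rose in DMH1 hindgut explants had foregut log2 differences of 0.37 for col4a5.L, 0.62 for fn1.S and 0.83 for nid2.L.

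Whether the DMH1 effect differed between regions was tested directly. No member was called (0 of 83, with 11 at an unadjusted p under 0.05 and 0.149% of all features called) in the fit without the block. The difference of effects, hindgut minus foregut, was 1.93 (SE 0.51, adjusted p = 0.196) for col4a5.L, 1.14 (SE 0.51, adjusted p = 1) for fn1.S and 1.94 (SE 0.45, adjusted p = 0.0839) for itgb3.L. Blocked on replicate number, 2 members were called, itga3.L (1.49, adjusted p = 0.0178) and itgb3.L (1.94, adjusted p = 0.013), and without hindgut vehicle replicate 1 the unblocked test called 1.

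**Figure D4:**
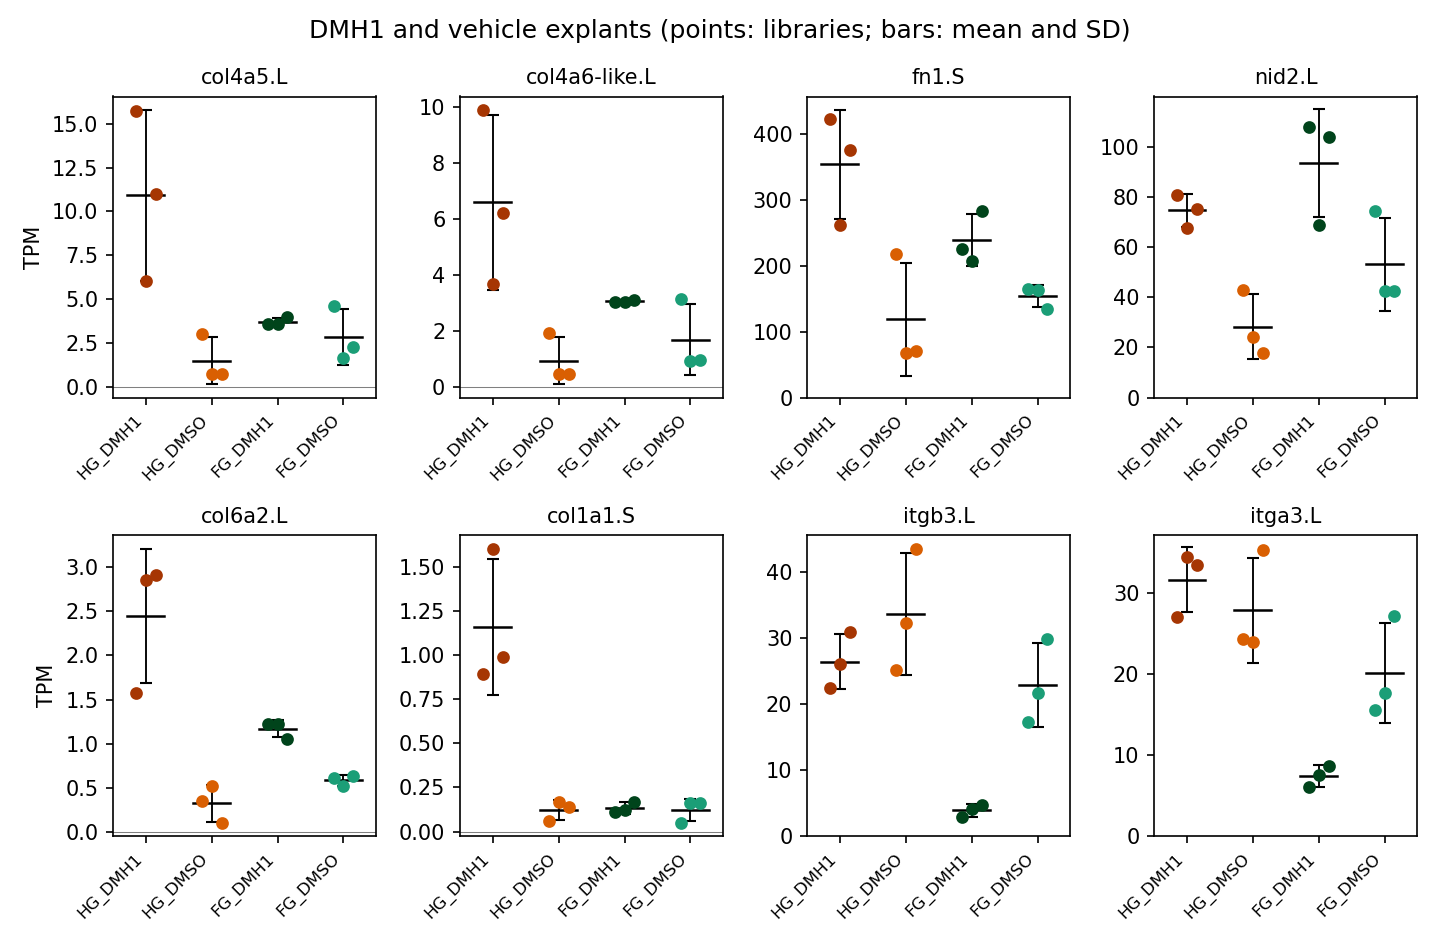
TPM of 8 members in DMH1 and vehicle hindgut explants and in DMH1 and vehicle foregut explants, where points are libraries and bars the mean and SD of 3 libraries. Collagen IV chains, fn1.S and nid2.L are higher under DMH1 in the hindgut, with col4a5.L at 10.9 TPM on average against 1.48 TPM in vehicle, and itgb3.L and itga3.L are lower under DMH1 in the foregut.

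In foregut explants of embryos in BIO, which activates Wnt signalling, 5 members were called, 2 higher and 3 lower. Of all features 6.43% were called, 1.92% higher and 4.5% lower. The share of members called, 6.02%, was thus close to that of all features. The alpha 4 chain itga4.S had 24.5, 14.3 and 17.8 TPM in BIO libraries against 6.02, 4.77 and 3.62 TPM in vehicle libraries (log2 difference 1.76, SE 0.31, adjusted p = 0.000551). The multiplexin col18a1.S had 11.03, 28.8 and 25.6 TPM under BIO against 7.24, 7.68 and 7.73 TPM in vehicle (log2 difference 1.31, SE 0.4, adjusted p = 0.0492). Every BIO library is above every vehicle library for both genes. The col18a1.S call was lost without any 1 of the vehicle libraries (adjusted p of 0.098 to 0.128) and without BIO replicate 2 or 3 (adjusted p = 0.198 and 0.201). With both col18a1 copies summed the difference was 0.71 (adjusted p = 0.155). Lower were itgb3.L, at 6.39, 11.1 and 11.1 TPM under BIO against 17.3, 21.7 and 29.8 TPM in vehicle (log2 difference -1.19, SE 0.32, adjusted p = 0.0212), itgb2.L at 0.44 TPM against 3.32 TPM, and the ceramide transfer gene col4a3bp.S at 11.3 TPM against 22.97 TPM. The itgb3.L call was lost without vehicle replicate 2 or 3 (adjusted p = 0.0585 and 0.139) and without BIO replicate 1 (adjusted p = 0.14). Of 19 blood and endothelium markers 15 were lower in the BIO libraries, summing to 332 to 466 TPM under BIO against 1426 to 1691 TPM in vehicle. Their part in the lower levels of itgb2.L and itgb3.L was not tested.

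The foregut BIO count moved with single libraries, being 8 without vehicle replicate 1, 2 without vehicle replicate 2 or 3, and 3 without BIO replicate 1 or 3. Blocked on replicate number it was 15, 7 higher and 8 lower, and the 10 added were col2a1.L (2.12), col4a5.L (1.06), col4a6-like.L (1.05), nid2.L (0.76), lamb1.L (0.69), col1a2.L (-0.93), itga2.L (-0.85), itga3.L (-0.79), itgb5.L (-0.63) and itga3.S (-0.5). For col2a1.L, BIO foregut libraries had 34.7, 4.66 and 13.2 TPM against 14.3, 0.35 and 0.68 TPM in vehicle, overlapping in level. Among partner genes, the small leucine-rich proteoglycan lum.L averaged 11.6 ± 1.43 TPM under BIO against 0.173 ± 0.234 TPM in vehicle, and the dystroglycan gene dag1.S 41.9 ± 1.75 TPM against 23.5 ± 3.27 TPM. Interstitial matrix genes had 4 higher and 1 lower of 48, and matrix proteases and inhibitors 1 higher and 4 lower of 37. Among all features 1.92% were higher and 4.5% lower.

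In the hindgut BIO changed 0 of 83 members in limma's test, with 3 at an unadjusted p under 0.05 (col18a1.S, col1a2.L and itga9.L), where 0.0277% of all features were called, 0.0173% higher and 0.0104% lower. The genes that rose in the foregut had hindgut log2 differences of 0.04 (SE 0.31, adjusted p = 1) for itga4.S and 0.83 (SE 0.4, adjusted p = 0.803) for col18a1.S. In the test of the BIO effect between regions 0 members were called, with 6 at an unadjusted p under 0.05 and 0.828% of all features called, 0.191% lower. Blocked on replicate number, itga4.S was called, with a difference of effects, hindgut minus foregut, of -1.72 (adjusted p = 0.00635). In the unblocked test 1 member with a positive difference was called without foregut vehicle replicate 2. With a negative difference, 1 was called without hindgut vehicle replicate 2 and 1 without hindgut BIO replicate 1. In vehicle, itga4.S already stood at 13.3 ± 5.85 TPM in hindgut against 4.80 ± 1.2 TPM in foregut explants, and under BIO at 13.7 ± 6.01 TPM in hindgut and 18.9 ± 5.22 TPM in foregut explants (SD, n = 3 each).

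In explants labelled as heated to switch on the Dkk1 transgene, no member passed the threshold in either region. The dkk1 rows of the table were not higher in these libraries: dkk1.L had 8.1 and 7.05 TPM in libraries labelled heated against 6.17 and 13.36 TPM in unheated hindgut libraries, and 14.66 and 16.75 TPM in libraries labelled heated against 15.86 and 20.84 TPM in unheated foregut libraries (log2 differences -0.25 and -0.20, SE 0.53). For dkk1.S the log2 differences were -0.22 in the hindgut and -0.065 in the foregut (SE 0.56). Whether transcripts of the transgene were counted in these rows is not stated in the labels. In the hindgut 0 of 83 were called by limma and 0 had an unadjusted p under 0.05, where 0.00693% of all features were called, and in the foregut it was 0 and 0, with 0.0243% of all features, 0.0173% higher and 0.00693% lower. Summed over the 39 collagen members, explants labelled heated had 157 ± 8.96 TPM against 192 ± 36.1 TPM unheated in the hindgut, and 128 ± 12.52 TPM against 139 ± 29.9 TPM unheated in the foregut (SD, n = 2 each). Fibronectin fn1.S had 121 and 159 TPM in libraries labelled heated against 120.0 and 195 TPM in unheated hindgut libraries, and 144 and 186 TPM in libraries labelled heated against 125 and 245 TPM in unheated foregut libraries. The libraries labelled heated lie within the range of the unheated ones in both regions. With 2 libraries each an effect of the size of the standard error could not be seen, and for fn1.S the log2 difference was -0.14 (SE 0.44) in the hindgut and -0.09 (SE 0.44) in the foregut. The genes called under BIO in the foregut had log2 differences of -0.38 for itga4.S, -0.26 for col18a1.S and 0.35 for itgb3.L in foregut explants labelled heated.

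Both homeologs of a gene were often expressed, and some pairs differed in the tissue where each was higher. Of the members, 28 gene pairs had both copies above the floor, and the .L copy had the higher mean in 22 and the .S copy in 6. The .L copy was higher in all 37 libraries for 7 pairs, and the .S copy in all for 0. The change in the ratio of .L to .S was tested over 7104 gene pairs, a test added after seeing the data. Hindgut mesoderm over endoderm called 13 of 28 member pairs, with 34.8% of all pairs called, and foregut mesoderm over endoderm 6 of 28, with 28.2% called. RSEM divides reads that match both copies between them, so levels of near-identical copies are uncertain.

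The integrin alpha 3 copies were each higher in another layer. Hindgut mesoderm libraries had 29.1 and 21.9 TPM of itga3.L against 12.01 and 6.14 TPM in hindgut endoderm, while itga3.S had 22.1 and 19.6 TPM in mesoderm against 104 and 89.7 TPM in endoderm. In the foregut itga3.L had 14.8 and 17.3 TPM in mesoderm against 4.14 and 5.10 TPM in endoderm, and itga3.S 13.6 and 14.8 TPM against 34.1 and 44.6 TPM. In both regions itga3.L was higher in mesoderm and itga3.S in endoderm, with no overlap between layers. The log2 ratio of itga3 copies, .L over .S, was higher in mesoderm by 3.61 in the hindgut and 3.00 in the foregut (adjusted p = 1.39e-10 and 5.24e-09). With the copies summed, the foregut log2 difference of itga3 was -0.51 (adjusted p = 0.0722), so the positive difference of itga3.L held for that copy alone.

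For itgb5 the ratio ran the other way, with a log2 difference between mesoderm and endoderm of -3.27 in the hindgut and -1.86 in the foregut: itgb5.L was lower in mesoderm while itgb5.S had 9.94 and 8.34 TPM in mesoderm against 15.7 and 9.35 TPM in endoderm of the hindgut, and 13.3 and 11.4 TPM against 6.29 and 7.96 TPM in the foregut. Ratios also moved outside the layer comparison. The fn1 ratio was lower in hindgut than in foregut vehicle explants, at a log2 difference of -1.10 (adjusted p = 0.000917), one of 7 member pairs called there, with 7.29% of all pairs called. Under DMH1 in the hindgut the col4a5 ratio was higher by 2.13, as col4a5.L rose and col4a5.S averaged 0.203 ± 0.047 TPM under DMH1 against 0.073 ± 0.087 TPM in vehicle, one of 2 member pairs called, with 0.605% of all pairs. With col4a5.S this near 0 TPM the call rested on the pseudocount of 1. At a pseudocount of 0.1 the difference was 2.1 (adjusted p = 0.157). In a fit to the compared groups alone the pair was not called either (adjusted p = 0.237). Under BIO in the foregut the itga4 ratio was lower, at a log2 difference of -1.18, as itga4.S rose and itga4.L averaged 21.7 ± 4.52 TPM under BIO against 14.1 ± 1.97 TPM in vehicle, one of 2 pairs called with 3.08% of all pairs. The itga4 pair also lost its call at a pseudocount of 0.1 (-1.33, adjusted p = 0.0845).

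**Figure D5:**
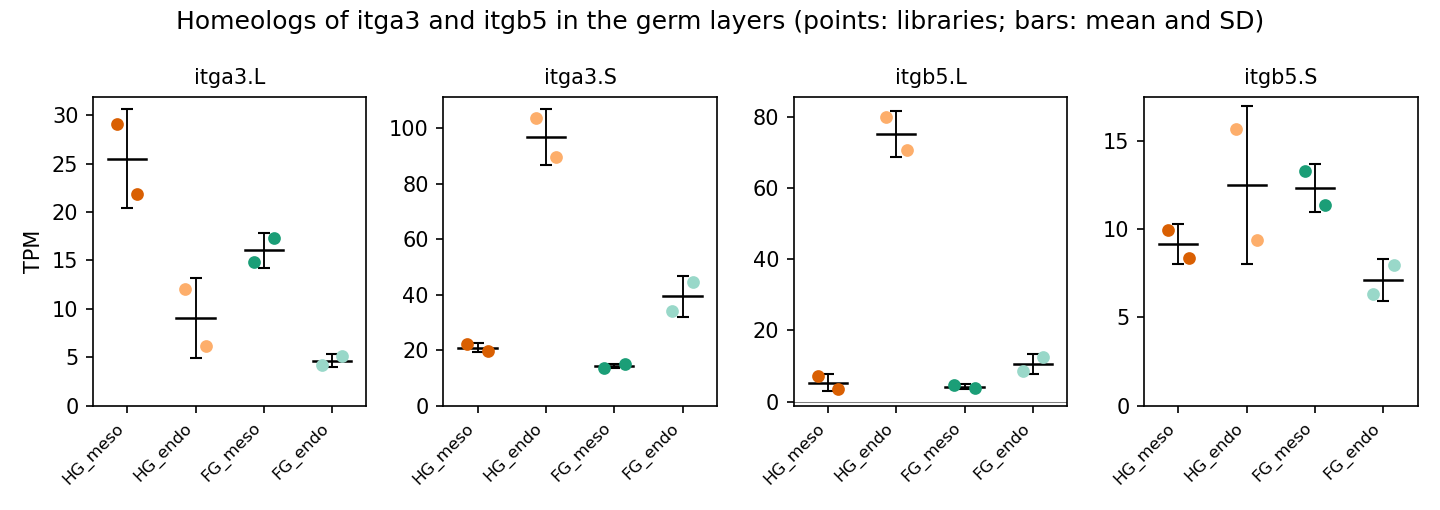
TPM of both homeologs of integrin alpha 3 and integrin beta 5 in hindgut mesoderm, hindgut endoderm, foregut mesoderm and foregut endoderm, where points are libraries and bars the mean and SD of 2 libraries. In hindgut explants itga3.L averages 25.5 TPM in mesoderm against 9.08 TPM in endoderm, and itga3.S 20.8 TPM in mesoderm against 96.8 TPM in endoderm.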

How the data were processed

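RNA-seq was made from 37 Xenopus laevis explant libraries. The deposited table holds transcript abundances in TPM, which the authors made with FastQC, Trimmomatic and RSEM, per the submitters' processing notes. Tool versions and genome build are not given in the sources used here. Per the labels' protocols, RNA was taken with a Nucleo-spin kit and libraries were TruSeq stranded mRNA. TPM sum to between 999208 and 999778 per library and keep no read depth, so no counting interval or floor is given. The table has 40271 features and 1 empty line. Of its columns 33 were matched to a sample and 4, the heated and unheated hindgut libraries, to their group. The tool could divide reads between near-identical copies.

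On log2(TPM + 1), the 28863 features (71.7%) that reached 1 TPM in 2 or more libraries were fitted with limma 3.58.1 in R 4.3.3, in 1 model of 15 group means (22 residual and 4.22 prior degrees of freedom, variance trend). A feature is called at a Benjamini-Hochberg adjusted p under 0.05 over all features of the comparison. A value after ± is the SD over libraries, and SE refers to the log2 difference. Of the member symbols 69 of 83 were found in RefSeq.

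The members, partner lists and marker lists were chosen with earlier results of these data known. Named are the 2 members with the highest mean TPM per role, up to 6 per direction and comparison with at least a 2-fold change and 5 TPM, their homeologs and partner chains, and the 5 matched by spelling. Other members named beside counts were chosen after their values were seen.

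Residuals showed that replicate numbers pair the inhibitor libraries (15 pairs of libraries, correlations 0.312 to 0.557), so block values stand beside results they change. The labels do not say what a number marks. Added after seeing the data were the unheated regional comparison, the homeolog ratio test over 7104 pairs and the number 1 libraries left out together.

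The fit was tested on simulated data of 28863 features. Changes were added only to features averaging above about 5 TPM on the log2 scale, and noise was drawn independently for each library. Many members average less, and recovery at their levels or with paired libraries was not simulated. For DMH1 in hindgut the fit recovered 41 of 93 genes at a log2 change of 1 and 97 of 107 at a change of 2. For hindgut mesoderm over endoderm it recovered 35 of 116 and 69 of 84. Plots used matplotlib 3.10.9 (Python 3.11.15).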

Additional observations from a re-analysis of the deposited data

Results flagged for a closer look

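The mesoderm minus endoderm difference of 6 members depended on region in limma's interaction test. That is 7.23% of members, where 8.32% of all features were called and 3.51% were called in the same direction. In a fit to the layer groups alone no member was called. On the log2 scale, hindgut minus foregut, it was -2.52 for itgb4.S, -2.51 for itgb5.L, -2.27 for lamb3.S, -1.68 for lamb1.S, -1.59 for lamb1.L and -0.95 for lama4.L. The floor was reached by lama4.L in hindgut endoderm libraries alone, so its value follows from the filter. In these libraries epidermal markers summed to 5720 to 7426 TPM in hindgut mesoderm and 6666 to 8576 TPM in foregut mesoderm, and endoderm markers to 8074 to 8740 TPM in hindgut endoderm and 2372 to 4085 TPM in foregut endoderm. Of 16 somite and muscle markers 10 were higher and 0 lower in the interaction test. The part of any of these markers in the 6 differences was not tested.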

How the results depend on the processing

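Of 977 values of 76 named results under other settings, 862 kept their direction and their side of the threshold, 114 lost significance and 1 reversed, itga3.L in foregut mesoderm over endoderm with homeologs summed (-0.51); the cause was not tested. Leaving out 1 library at a time, members called ranged 36 to 41 for dorsal over foregut, 43 to 47 over hindgut, 12 to 20 for foregut layers, 19 to 28 for hindgut layers, 9 to 24 for endoderm regions, 0 to 1 for mesoderm regions, 4 to 11 for the layer interaction, 7 to 11 for vehicle regions, 0 to 0 for unheated regions, 1 to 3 for DMH1 and 2 to 8 for BIO in foregut, 3 to 6 for DMH1 and 0 to 0 for BIO in hindgut, 0 to 1 for both inhibitor interactions and 0 to 0 for libraries labelled heated in either region. With the replicate block, counts were 10 for DMH1 in hindgut and 15 for BIO in foregut. They were 2 for the DMH1 and 1 for the BIO interaction, and 10 (9 higher, 1 lower) for mesoderm regions. No member call was lost under the block. Same-number residual correlations were 0.335 for mesoderm regions, 0.214 for foregut layers, 0.161 for hindgut layers and 0.101 for endoderm regions (2 pairs each). For foregut libraries labelled heated against unheated ones the value was 0.502. With 2 libraries per group the residuals mirror each other, so whether these numbers mark pairs was not settled. The 6 dorsal pairs correlated between -0.088 and 0.072. No paired analysis was possible for heated hindgut and unheated regions because their columns carry no sample number. Fitted to the compared groups alone, counts were 1 for vehicle regions, 0 for unheated regions, 2 for foregut and 17 for hindgut layers, 0 for endoderm and 0 for mesoderm regions, 0 for the layer interaction, and 0 for DMH1 in either region. A pseudocount of 0.1 gave 3 for BIO in foregut and 2 for unheated regions, and a pseudocount of 5 gave 12 for foregut layers and 1 for the BIO interaction. Without the filter BIO in foregut gave 3, and median-of-ratios scaling gave 2 for unheated regions. That scaling moved the median of all features to -0.05 from -0.23 for dorsal over foregut, to 0.01 from -0.12 for vehicle regions and to 0 from 0.11 for hindgut layers. Without the number 1 inhibitor libraries, vehicle regions gave 7 and DMH1 in foregut 1. Where 1 library of a group remained, its spread was taken from the other groups. Depth is unknown, so a value of 0 has no limit here.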
